A study of Mus musculus with 6 samples.

Results

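The proteasome subunits were examined in neonatal and adult mouse testes. They are the genes of the alpha and beta rings of the 20S core, the ATPase and non-ATPase subunits of the 19S regulatory particle, the activators and the inhibitor of the Psm series. Members were chosen by gene symbol alone, and 44 mRNA probes for 43 genes qualified, of 19053 genes named through the mRNA probes. Psma8, the alpha subunit of the testis proteasome, was not analysed here. RNA came from the whole testis of male C57/BL6 mice, 6 days postpartum in the neonatal group and 8 weeks postpartum in the adult group. Each age had 3 biological replicates, and the study divided the mice of an age into 3 groups to make them, so a replicate stands for several animals. The comparison asks which transcripts differ between the testis before meiosis and the testis with full spermatogenesis.

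The proteasome is the protease that degrades proteins tagged with ubiquitin. Its 20S core is a barrel of alpha and beta rings, of whose beta subunits Psmb5, Psmb6 and Psmb7 carry the catalytic sites, and the 19S particle recognises, unfolds and feeds in the substrate. Interferon induces the immune subunits Psmb8, Psmb9 and Psmb10, which replace the catalytic ones, and the activator PA28, made of Psme1 and Psme2. In male germ cells, the alpha subunit Psma8 and the activator PA200, encoded by Psme4, form proteasomes of the testis that act in meiosis and in the removal of histones in spermatids.

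Levels are given as the log2 of the spot intensity over the 75th percentile of its array, and changes as adult minus neonatal on that scale. Every array measured 41 of the 44 member probes well above background (93.2%, against 66.6% of all mRNA probes), and at least 1 array measured 43. The exception was Psmb11, the catalytic beta subunit of the thymus, which read -7.22 on all 3 neonatal arrays and -7.22, -7.22 and -6.86 on adult arrays 1 to 3. None of these readings was well above background.

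The scanner's outlier marks fell on many member spots. On neonatal array 3 they marked 75% of the member probes and 40.6% of all mRNA probes, and on adult array 3 they marked 54.5% and 31.9%. Both arrays were on slide 2, where 83.3% (neonatal) and 78.4% (adult) of the brightest 5616 mRNA probes were marked, and 28 of the 44 member probes were among these. With marked spots left out, 9 member probes kept 3 complete pairs, 17 kept 2, 3 kept 1 and 15 kept none. The test therefore covered 25 member probes, and for the other 18 above background the fit with marked spots kept is given and named as such. Readings on each array are printed with marked spots included. A change tested on 2 pairs therefore leaves out some readings printed beside it.

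With marked spots left out, 4 of the 25 tested member probes were up-regulated in adult testis (adjusted p at most 0.05 in limma), against 29.7% of the 15121 mRNA probes tested, and 14 were down-regulated, against 45.8%. In percent, these are 16% and 56% of the members. Their median change was -0.59, beside -0.40 for all mRNA probes tested. A change of at least 5-fold was reached upwards by 1 member, Psme4, where 12.6% of mRNA probes did so, and downwards by 2 members, Psmb9 and Psmd10, where 13.7% did so. With marked spots kept, 7 of 43 member probes rose, against 29.8% of 19310 mRNA probes, and 29 fell, against 49.5%. At least 5-fold, 1 of them rose (12.8% of mRNA probes) and 9 fell (15.4%). The median of the 43 was -0.85, beside -0.50 for all mRNA probes.

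Replicate number served as a block, and replicates 1 and 2 of both ages lay on slide 1. With the slide as the block in its place, 6 of the 25 members rose and 15 fell, against 30.8% and 47.6% of mRNA probes. With no replicate block 3 rose and 12 fell, against 26.7% and 42%. Within slide 1 alone 4 rose and 10 fell, against 28.5% and 43%. Slide 2 held 1 array of each age and allowed no test of its own.

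The split between rises and falls depended on the scaling. Shifting each array to the median of 30 constitutive probes, with marked spots kept, gave 10 members higher and 19 lower, and 7380 mRNA probes higher and 7846 lower, in place of 5756 and 9552. With marked spots left out only 5 constitutive probes were on all arrays. Shifting to their median gave 10 members higher and 4 lower, and 7386 mRNA probes higher and 4240 lower in place of 4493 and 6921, but those counts rest on p-values that share the error of so small a reference. Shifting to the median of all probes gave 2 members higher and 15 lower, against 26.2% and 50.2% of mRNA probes. In the log2 values the authors deposited, where 39 members rather than 25 were tested, 4 were higher and 30 lower. Of mRNA probes, 26.2% were higher and 54.6% lower in those values. The median of all mRNA probes moved from -0.40 to -0.71 with the shift to the median, -0.73 with quantile normalization, -0.84 with the deposited values and 0.50 with the constitutive shift. Quantile normalization took the median of the 19 constitutive probes tested from -0.43 to -1.16. The constitutive median thus stood at -0.03 relative to all mRNA probes under the main scaling, at -0.43 under quantile normalization and at -0.51 under normexp correction.

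**Figure D1:**
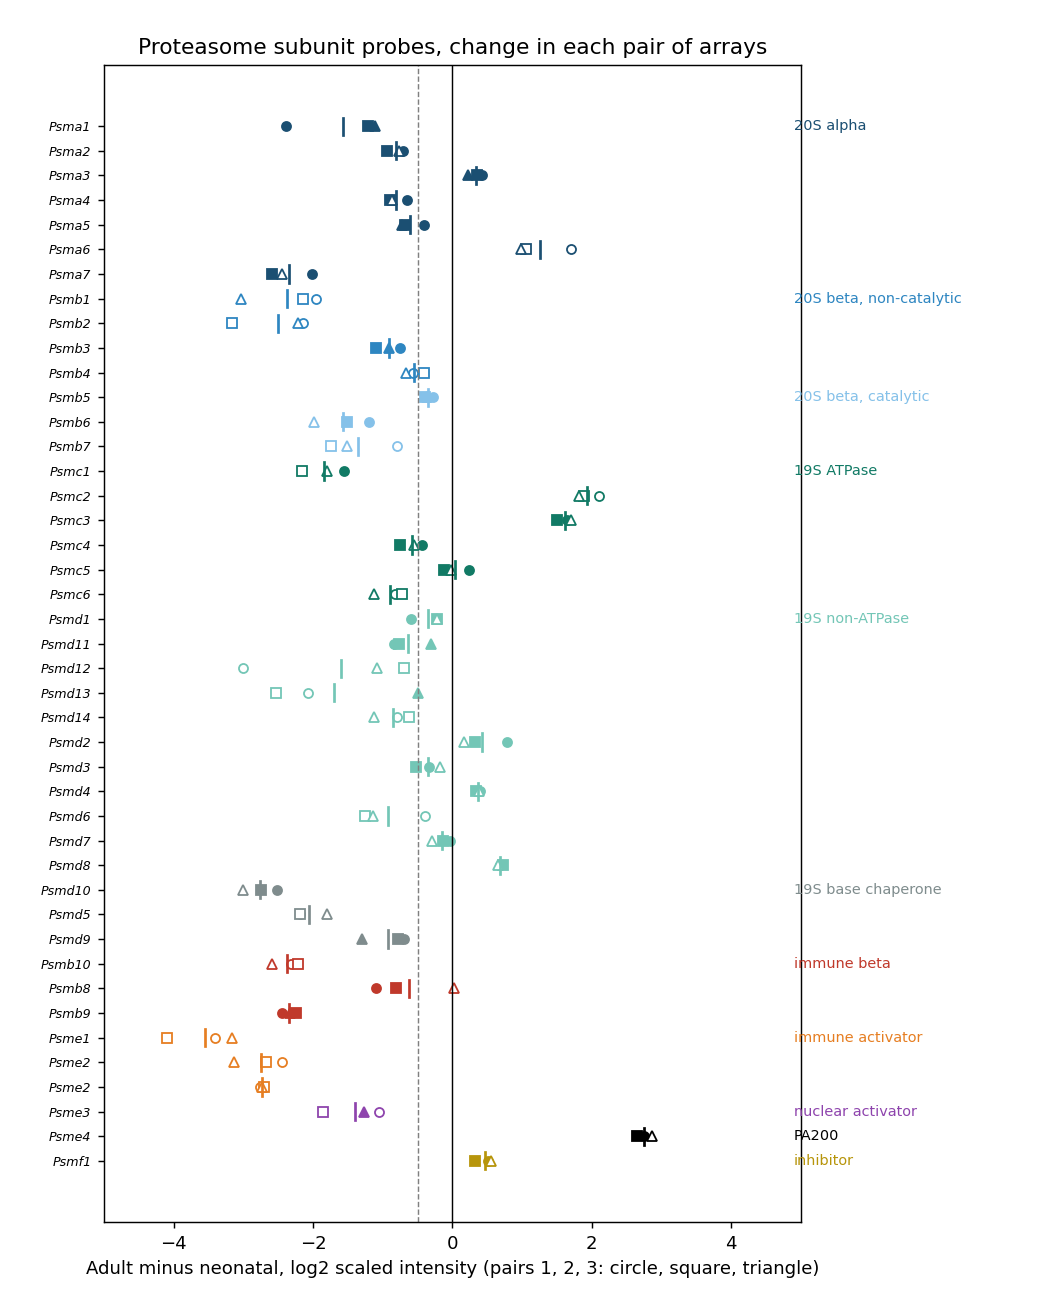
Change of each member probe above background, adult minus neonatal on the log2 scale of scaled intensity, for pairs 1 (circles), 2 (squares) and 3 (triangles) of arrays, with open symbols where either spot was marked. Vertical ticks are the means of the 3 pairs, and the dashed line is the median of all mRNA probes with marked spots kept (-0.50). The Psme4 probe lies farthest to the right and the Psme1 probe farthest to the left.

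The alpha ring gates the 20S core, and 6 of its 7 constitutive members were tested. Of these, 5 fell (83.3%, against 45.8% of mRNA probes) and 1 rose (16.7%, against 29.7%). Their median was -0.80, beside -0.40 for all mRNA probes tested. Psma7 had the largest fall. It read 3.82, 3.98 and 3.96 on neonatal arrays 1 to 3 and 1.82, 1.40 and 1.52 on the adult ones, so that the ages did not overlap. The adult value was lower in 3 of 3 pairs. On the 2 unmarked pairs its change was -2.30 (SE 0.22, adjusted p = 0.00345). Under normexp correction it was -2.90. The change stayed at -2.30 but the call was lost without the filter on dim probes (adjusted p = 0.0597). It was also lost under the methods' paired t-test (unadjusted p = 0.0801).

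Psma3 was the one of these 6 that rose. It read 5.08, 5.20 and 5.93 in neonatal testis and 5.51, 5.56 and 6.16 in adult testis. Each adult array lay above its own neonatal partner, yet the ages overlapped, with both slide 2 arrays high. The change was 0.34 (SE 0.11, adjusted p = 0.043). The call was lost with marked spots kept (adjusted p = 0.0516), without the replicate block (adjusted p = 0.354) and, with the block kept, with pair 1 or pair 2 left out (0.30 and 0.33), while without pair 3 it was 0.40 (adjusted p = 0.0495). It was 0.08 with the shift to the median (adjusted p = 0.525) and with the deposited log2 values (adjusted p = 0.575), and the call was also lost with no floor (adjusted p = 0.0585) or the floor set before scaling (adjusted p = 0.0582). The change turned to -0.55 under quantile normalization and -0.47 under normexp correction.

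Psma2 (-0.83), Psma4 (-0.77) and Psma5 (-0.60) fell by less than Psma7. Psma1 fell by 1.57, from a dim signal that was well above background on only 1 of 3 adult arrays. Psma6 had no complete unmarked pair. With marked spots kept it read 2.19, 2.36 and 2.73 in neonatal and 3.89, 3.42 and 3.72 in adult testis, with no overlap, and rose by 1.25 (SE 0.19, adjusted p = 0.00389).

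The beta ring holds the proteolytic sites. Psmb5, with the chymotrypsin-like site, read 4.70, 4.87 and 5.63 in neonatal and 4.42, 4.48 and 5.26 in adult testis. The ages overlapped, while each adult array lay below its partner, and the change of -0.35 passed the test (SE 0.10, adjusted p = 0.0357). Without the replicate block the call was lost (adjusted p = 0.405), as it was with the block and any 1 pair left out (changes of -0.38 to -0.32). The fall was larger under quantile normalization (-1.16) and normexp correction (-1.12) and was also called with the shift to the median (-0.60) and the deposited log2 values (-0.61). The constitutive shift, for which Psmb5 is itself 1 of 5 reference probes, gave 0.56.

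Psmb6, with the caspase-like site, read 0.47, 0.65 and 1.58 in neonatal and -0.73, -0.86 and -0.42 in adult testis. The ages were apart, and its change was -1.35 (SE 0.16, adjusted p = 0.00634), which the shift to the 5 constitutive probes took to -0.45. Psmb7, with the trypsin-like site, had no complete unmarked pair and read 2.28, 2.37 and 2.09 in neonatal and 1.48, 0.63 and 0.58 in adult testis. With marked spots kept its change was -1.35 (SE 0.22, adjusted p = 0.00514), and the ages did not overlap. On slide 1 alone it was -1.27 (adjusted p = 0.065).

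Among the non-catalytic beta subunits, Psmb3 was the one that could be tested, and fell by 0.92 (SE 0.12, adjusted p = 0.00323). The others were measured only with marked spots kept. In that fit all 4 non-catalytic beta subunits fell, against 49.5% of mRNA probes. Psmb1 read 0.88, 0.90 and 1.09 in neonatal and -1.09, -1.25 and -1.93 in adult testis, a change of -2.38 (SE 0.25, adjusted p = 0.00117). Psmb2 read 0.80, 0.85 and 0.12 in neonatal and -1.35, -2.31 and -2.10 in adult testis, a change of -2.51 (SE 0.25, adjusted p = 0.000968). Neither showed overlap between the ages. Psmb4 changed least of them, by -0.55 (adjusted p = 0.0135).

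The ATPases of the 19S base, which unfold the substrate, did not move together. Psmc3 read 4.64, 4.77 and 4.74 in neonatal and 6.29, 6.27 and 6.43 in adult testis, well apart. On its 2 unmarked pairs it rose by 1.57 (SE 0.14, adjusted p = 0.00322), or by 0.72 under quantile normalization and 0.84 under normexp correction. Psmc2 was marked on every array. It read 3.99, 3.98 and 4.04 in neonatal and 6.09, 5.87 and 5.85 in adult testis, and with marked spots kept rose by 1.93 (SE 0.12, adjusted p = 0.000274), or by 1.12 and 1.18 under the same alternatives. Psmc4 fell by 0.59 (adjusted p = 0.047), and Psmc5, at 0.06, did not pass the test (adjusted p = 0.772). Psmc1 (-1.83) and Psmc6 (-0.89) fell with marked spots kept.

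Of the 11 non-ATPase subunits of the 19S particle, which include the ubiquitin receptors and the deubiquitinase Psmd14, 7 were tested. Their median change was -0.08, beside -0.40 for all mRNA probes tested. Of these 7, 1 rose and 1 fell (14.3% each), against 29.7% and 45.8% of mRNA probes. Psmd8 rose by 0.70 (adjusted p = 0.0212) and Psmd11 fell by 0.64 (adjusted p = 0.0192). The other 5 did not pass the test, with changes of 0.56 for Psmd2, 0.37 for the ubiquitin receptor Psmd4, -0.08 for Psmd7, -0.40 for Psmd1 and -0.43 for Psmd3. In the fit with marked spots kept, Psmd4 rose (0.37, adjusted p = 0.0335), and Psmd12 (-1.59), Psmd13 (-1.69), Psmd14 (-0.85) and Psmd6 (-0.93) fell. The change of Psmd12 leaned on pair 1, with -3.00, -0.70 and -1.08 in pairs 1 to 3 (adjusted p = 0.0408), and that of Psmd13 was -2.07, -2.53 and -0.49.

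All 3 chaperones that help to assemble the 19S base fell, against 49.5% of mRNA probes with marked spots kept. Psmd10, also known as gankyrin, read 0.49, 0.53 and 0.98 in neonatal and -2.03, -2.22 and -2.03 in adult testis. The ages did not overlap and its change was -2.63 (SE 0.15, adjusted p = 0.00123), a 6.19-fold fall. Psmd5 fell by 2.06 with marked spots kept (SE 0.14, adjusted p = 0.000324). Psmd9 stood well above background on all 3 neonatal arrays and on none of the adult ones. The fall was at least 1.45-fold (adjusted p = 0.00843), with measured means of -6.30 ± 0.33 and -7.22 ± 0.00 (SD, n = 3).

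The immune subunits are next. Psmb9 read -2.81, -2.88 and -3.84 in neonatal and -5.26, -5.13 and -6.17 in adult testis, unmarked throughout. The ages did not overlap, and the change was -2.34 (SE 0.11, adjusted p = 0.000234), a 5.08-fold fall seen in 3 of 3 pairs. Under normexp correction it was -1.52, less than 5-fold. Psmb10, measured with marked spots kept, read 1.86, 1.94 and 1.63 in neonatal and -0.45, -0.26 and -0.96 in adult testis. Its ages were apart as well, and it fell by 2.37 (SE 0.14, adjusted p = 0.000199).

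Psmb8 was the exception. It read -0.74, -0.57 and -1.15 in neonatal and -1.83, -1.39 and -1.13 in adult testis, so the ages overlapped on slide 2. With the marked neonatal spot of pair 3 left out it fell by 0.95 (SE 0.16, adjusted p = 0.0137), and with that spot kept the change was -0.63 and missed the threshold (adjusted p = 0.0809). With the block dropped and 1 array left out as well, the call was lost without adult array 2 (-0.82) and without neonatal array 1 (-0.88) or 2 (-0.71).

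Both PA28 subunits fell in the fit with marked spots kept, and Psme1 by more than any other member. Psme1 read 2.63, 2.64 and 1.77 in neonatal and -0.78, -1.46 and -1.39 in adult testis, with no overlap, and fell by 3.55 (SE 0.22, adjusted p = 0.000251). Psme2 had 2 probes that gave nearly the same change. The probe for NM_011190 read 4.0, 3.92 and 2.62 in neonatal and 1.24, 1.21 and -0.11 in adult testis and fell by 2.73 (SE 0.11, adjusted p = 8.72e-05). For NM_001029855 the values were 3.39, 3.68 and 2.49 in neonatal and 0.95, 1.00 and -0.64 in adult testis, and the fall was 2.75 (SE 0.18, adjusted p = 0.000268). On both probes the slide 2 array was the lowest of its age, and the ages still did not overlap. In all, 5 of the 6 immune probes, 2 of them for Psme2, fell at least 5-fold with marked spots kept, against 15.4% of mRNA probes. Of these 5, all but Psmb9 had no complete unmarked pair. The median of the 6 was -2.55, beside -0.64 for the 31 constitutive probes and -0.50 for all mRNA probes. The 2 immune probes tested without marked spots had a median of -1.65.

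**Figure D2:**
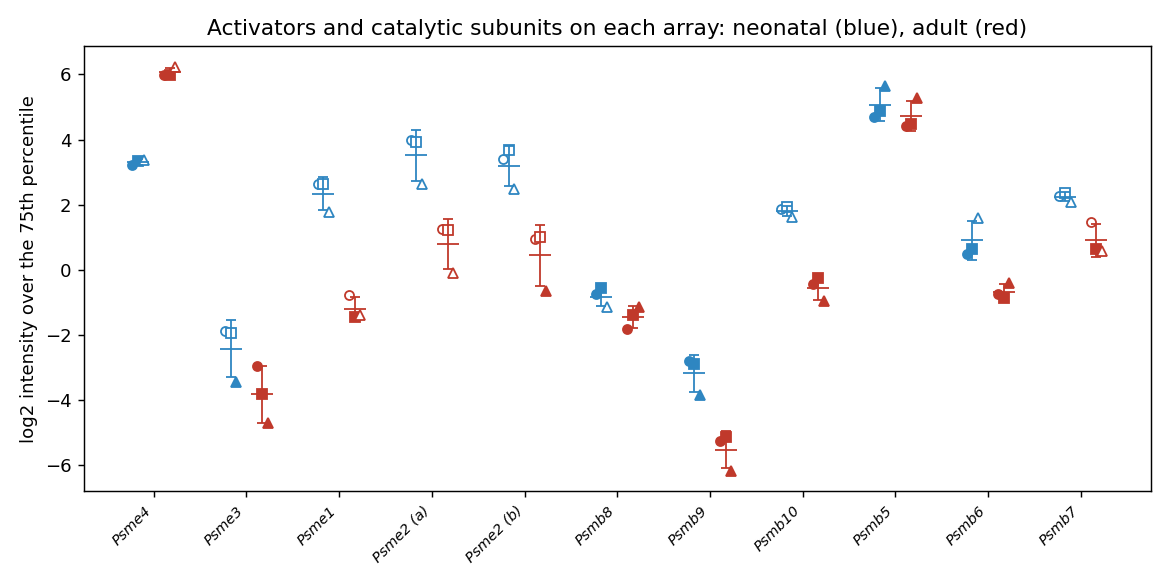
Level of activators and catalytic subunits on each array, as log2 of intensity over the array's 75th percentile, for replicates 1 (circles), 2 (squares) and 3 (triangles), with open symbols for marked spots. Horizontal bars are means and whiskers 1 SD (n = 3), with Psme2 shown for its probes NM_011190 (a) and NM_001029855 (b). Psme4 rises from means of 3.31 to 6.06, and the levels of different probes are not comparable with each other.

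Psme3 encodes PA28 gamma, the nuclear activator that interferon does not induce. It read -1.88, -1.95 and -3.43 in neonatal and -2.95, -3.81 and -4.69 in adult testis. The ages overlapped across slides, while the adult array was lower in 3 of 3 pairs, and with marked spots kept it fell by 1.40 (SE 0.20, adjusted p = 0.00306). The call was lost without the replicate block (adjusted p = 0.0771). With the block it held without pair 1 (-1.56), pair 2 (-1.16) or pair 3 (-1.46).

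Psme4, the activator PA200, was the only member to rise at least 5-fold. It read 3.21, 3.34 and 3.38 in neonatal and 5.97, 5.98 and 6.24 in adult testis. All adult arrays lay above all neonatal ones. Both slide 2 spots were marked, and on the 2 unmarked pairs the change was 2.70 (SE 0.14, adjusted p = 0.00102), a 6.50-fold rise. With marked spots kept the rise was 2.75. Its size depended on the normalization, since quantile normalization gave 2.08 and normexp correction 2.13, both under 5-fold. Psmf1, the inhibitor PI31, read 0.49, 0.62 and 0.87 in neonatal and 0.99, 0.95 and 1.43 in adult testis. The ages did not overlap, but its change of 0.42 did not pass the test (SE 0.15, adjusted p = 0.0809), although with marked spots kept the change of 0.46 did (adjusted p = 0.022).

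To compare subunits without the scaling between arrays, the median of the constitutive probes measured on all 6 arrays was subtracted from each array. With marked spots left out, 5 such probes remained (Psma3, Psma5, Psmb3, Psmb5 and Psmd11), and the change of Psme4 exceeded theirs by 3.60. Psmb9 differed from them by -1.44 and Psmb8 by -0.05, and under normexp correction the signs turned, to 0.11 and 0.75. Those p-values are not given, since the error of so small a reference is shared by every probe and limma's prior degrees of freedom went from 2.07 to 132.83.

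With marked spots kept, 30 constitutive probes formed the reference. Psme4 then stood 3.19 above it (adjusted p = 5.66e-05), Psme1 at -3.12 (adjusted p = 0.000324), the Psme2 probes at -2.30 and -2.31, Psmb10 at -1.93 (adjusted p = 0.00033) and Psmb9 at -1.91 (adjusted p = 0.00023). Psmb8 at -0.19 did not differ from the reference by the test (adjusted p = 0.517). Several constitutive subunits also departed from their own median in this fit, upwards in Psmc2 (2.37) and Psmc3 (2.05) and downwards in Psmb2 (-2.07), Psmb1 (-1.94) and Psma7 (-1.91). The lowest constitutive value, that of Psmb2, lay below those of Psmb9 and Psmb10 and above those of Psme1 and Psme2, and these differences between subunits were not tested.

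Each immune catalytic subunit takes the place of 1 constitutive subunit, so their changes were set side by side with marked spots kept. The change of Psmb10 minus that of Psmb7 was -1.51, -0.47 and -1.08 in pairs 1 to 3, with a mean of -1.02 ± 0.52 (SD, n = 3). For Psmb9 and Psmb6 the mean was -0.78 ± 0.46 and all 3 pairs had the same sign. This contrast depended on the processing. With marked spots left out, Psmb9 and Psmb6 changed almost alike under normexp correction, by -1.52 and -1.49. Under quantile normalization they changed by -2.68 and -1.40. For Psmb8 and Psmb5 the pairs disagreed, at -0.81, -0.42 and 0.39. Among activators, Psme1 fell more than Psme3 in every pair, by a mean of -2.16 ± 0.23, and Psme4 moved the other way from Psme3 by 4.15 ± 0.35.

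Whole testis was measured, so fewer cells of a type and less RNA per cell cannot be told apart. Lists of cell type markers were read on the same arrays with marked spots kept. Over all mRNA probes in that fit, 29.8% rose and 49.5% fell. Spermatid markers rose in 8 of 8 probes, and their summed scaled intensity went from 0.717, 0.753 and 0.842 on the neonatal arrays to 1120, 1340 and 1540 on the adult ones, with the brightest probe that of Prm2. Of the 10 spermatocyte probes, 8 rose (80%) and 1 fell (10%). The sum went from 24.4, 20.8 and 29.8 to 246, 260 and 294, the brightest probe being that of Pgk2. Of the 11 spermatogonia probes, 10 were tested, of which 8 fell (80%) and 1 rose (10%). The sums were 62.8, 61.2 and 77.5 in neonatal and 14.4, 15.9 and 17.3 in adult testis, with a Kit probe the brightest and Gfra1 at background. The part of these shifts in the rise of Psme4 and the falls of other subunits was not tested.

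Markers of somatic cells moved as well, in the same fit, where 29.8% of all mRNA probes rose and 49.5% fell. All 7 Sertoli probes fell (sums 72.6, 74.0 and 51.1 in neonatal and 17.5, 13.2 and 11.9 in adult testis, brightest probe Wt1), and so did all 7 endothelial probes (sums 8.32, 9.52 and 15.4, then 2.27, 1.84 and 3.37, brightest probe Cdh5). Of 6 peritubular myoid probes, 5 were tested, of which 3 fell (60%) and 1 rose (20%). Their sums were 21.9, 22.1 and 27.1, then 5.47, 4.56 and 6.73, with Myh11 the brightest probe and Cnn1 at background. Leydig markers were mixed, with 3 probes up (42.9%) and 2 down (28.6%) of 7 (sums 31.7, 34.9 and 30.2, then 74.3, 58.2 and 55.3, brightest probe Insl3). Of 5 erythroid probes, 3 rose (60%) and 2 fell (40%) (sums 17.2, 21.3 and 18.8, then 5.63, 7.43 and 6.01, brightest probe Hbb-bt).

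Macrophages and other leukocytes express the immune subunits strongly. Of the 10 probes for their markers, 8 were tested with marked spots kept. Of these, 3 fell (37.5%, against 49.5% of mRNA probes) and 1 rose (12.5%, against 29.8%). The sum was 10.1, 10.1 and 9.89 in neonatal and 8.98, 9.61 and 9.07 in adult testis. The C1qa probe was the brightest, and both Ptprc probes were at background. The median change of the 8 tested was -0.36, beside -2.55 for the immune subunit probes. The part of leukocytes in the falls of Psmb9, Psmb10, Psme1 and Psme2 was not tested.

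The immune proteasome supplies peptides for MHC class I, and related genes of that route fell too. With marked spots left out, 8 of 11 antigen processing probes fell and none rose, against 45.8% and 29.7% of mRNA probes, and their median was -1.66, beside -0.40. Of 13 tested with these spots kept, 10 fell (76.9%, against 49.5%) and none rose. The largest falls were those of Erap1 (-3.16), which trims the peptides, Ifngr2 (-2.70), a chain of the interferon gamma receptor, and Irf1 (-2.70 and -1.94 on 2 probes, with 1 more probe at background). The peptide transporter genes Tap1 (-2.03) and Tap2 (-1.66) also fell, and B2m, the light chain of MHC class I, fell by 0.59. H2-D1 (0.36) and H2-K1 (0.31) did not pass the test.

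Among assembly factors and associated proteins, 3 of 17 probes tested with marked spots left out rose (17.6%) and 5 fell (29.4%), both below the shares of all mRNA probes (29.7% and 45.8%), with a median of -0.12. Of 28 probes tested with these spots kept, 3 rose (10.7%) and 16 fell (57.1%), against 29.8% and 49.5%, with a median of -0.57. Ubqln1, a shuttle for ubiquitinated proteins, rose by 1.33 on 1 probe, and another probe, at -0.12, did not pass the test. Akirin2, which carries proteasomes into the nucleus, rose by 1.03. Among the 17, the largest falls were those of Zfand5, at least 3.12-fold lower in adult testis and there not well above background, Txnl1 (-1.67) and Vcp (-0.80), the unfoldase that hands substrates to the proteasome. The core chaperone Psmg1 fell by 0.35 and Fbxo7 by 0.62.

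Of the genes that control proteasome transcription, 1 of 10 probes could be tested without marked spots. That was Ngly1, the enzyme that removes sugars from the factor Nfe2l1, and it rose by 4.91 (adjusted p = 0.000966). With marked spots kept, 2 of the 10 probes rose (20%) and 8 fell (80%), against 29.8% and 49.5% of mRNA probes. All 6 probes of Nfe2l1, the factor that drives proteasome genes, were among those that fell, by between 1.61 and 1.87, and Nfe2l2 fell by 1.94. Ddi2, the protease that activates Nfe2l1, fell by 2.49. Its paralog Ddi1 rose, from readings of -7.22, -7.22 and -6.44 to 4.54, 4.52 and 3.72, and as only 1 neonatal reading was well above background the size of that rise is set by the floor. Of the ubiquitin and E1 genes, 2 of 6 tested probes rose and 2 fell (33.3% each, against 29.7% and 45.8% of mRNA probes), and with marked spots kept 2 of 8 rose (25%) and 5 fell (62.5%, against 49.5%). The ubiquitin gene Ubb (1.03) rose, and both probes of the E1 enzyme Uba1 fell (-2.66 and -1.55).

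Promoters were read to see what sequence features the members share. RefSeq promoter windows of 300 bases (build GRCm38.p6) were found for 37 member genes, 40 windows in all. Motifs were sought on both strands. The core of the antioxidant response element bound by Nfe2l1 and Nfe2l2, TGACNNNGC, was in 6 of 40 windows (15%, against 12.4% of 32851 promoters), those of Psmb5, Psmb6, Psmc6, Psmd9, Psmd12 and Psme4. The core of the interferon-stimulated response element, GAAANNGAAA, was in 4 (10%, against 3.44%), those of Psmb3, Psmd4, Psmd9 and Psme1, and the gamma-activated site, TTCNNNGAA, in 2 (5%, against 8.3%), those of Psmb8 and Psmd2. The cyclic AMP response element, TGACGTCA, which shares its first letters with the antioxidant core, was in none (1.79% of all promoters). A match is a description of the letters and not a site of binding.

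The window of the member that rose most and those of the interferon-induced members with a match are printed here, together with that of Psmb5 as a constitutive catalytic subunit. Each is written 5′ to 3′ on the strand of the gene, with the motif in capitals. Psme4 lies on chr11:30771525-30771824 on the plus strand and its antioxidant core is on the opposite strand. Psmb5 lies on chr14:54617946-54618245 on the minus strand and its antioxidant core is on the same strand as the gene. Psme1 lies on chr14:55578244-55578543 on the plus strand, with the interferon-stimulated core on the opposite strand. Psmb8 lies on chr17:34197945-34198244 on the plus strand and holds a gamma-activated site.
Psme4: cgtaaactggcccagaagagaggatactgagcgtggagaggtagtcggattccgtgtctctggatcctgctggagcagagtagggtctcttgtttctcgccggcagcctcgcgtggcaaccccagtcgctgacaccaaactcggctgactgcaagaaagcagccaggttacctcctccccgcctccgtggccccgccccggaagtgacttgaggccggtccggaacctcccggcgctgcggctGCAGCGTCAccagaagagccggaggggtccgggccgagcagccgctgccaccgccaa
Psmb5: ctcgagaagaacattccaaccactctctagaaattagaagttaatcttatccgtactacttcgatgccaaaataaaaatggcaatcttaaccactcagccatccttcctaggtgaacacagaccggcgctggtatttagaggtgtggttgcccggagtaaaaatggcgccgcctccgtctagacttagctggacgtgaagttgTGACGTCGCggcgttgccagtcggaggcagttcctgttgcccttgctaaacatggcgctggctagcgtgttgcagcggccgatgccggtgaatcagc
Psme1: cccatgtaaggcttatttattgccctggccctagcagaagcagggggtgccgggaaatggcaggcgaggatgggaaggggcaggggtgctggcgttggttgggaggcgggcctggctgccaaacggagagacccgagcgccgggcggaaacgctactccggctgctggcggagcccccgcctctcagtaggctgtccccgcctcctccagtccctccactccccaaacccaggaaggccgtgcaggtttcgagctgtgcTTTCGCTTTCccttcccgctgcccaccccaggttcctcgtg
Psmb8: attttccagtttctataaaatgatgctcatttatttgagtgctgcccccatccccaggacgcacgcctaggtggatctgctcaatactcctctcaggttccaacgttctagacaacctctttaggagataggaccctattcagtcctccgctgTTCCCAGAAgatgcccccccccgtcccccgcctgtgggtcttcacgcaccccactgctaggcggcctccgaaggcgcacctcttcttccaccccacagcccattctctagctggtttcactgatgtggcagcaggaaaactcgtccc

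The study listed lncRNAs that lie in or near genes of members. It chose them for their change on these arrays, so their values are a description with no test and are no independent evidence of direction. Beside Psme4 lies AK019618, transcribed away from it, which read -4.71, -4.83 and -2.66 in neonatal and 0.50, 0.09 and 1.61 in adult testis. The ages did not overlap, and it was higher in adult testis as was Psme4 itself. Beside Psma5, which fell, the lncRNA uc008qyp had no neonatal reading well above background and averaged -1.27 ± 0.66 (SD, n = 3) in adult testis.

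On the strand opposite to exons of members, uc007nub at Psma3, AK007029 at Psmd11 and AK013113 at Psmd8 were all higher in adult testis. Their adult means were -2.18 ± 0.16, -1.35 ± 0.45 and -2.41 ± 0.17, against neonatal means of -7.22 ± 0.00, -6.72 ± 0.38 and -5.77 ± 0.13 (SD, n = 3 each). Their genes had gone different ways in the main fit, with a rise in Psmd8 and a fall in Psmd11. Psma3 rose there too, but its call and direction depended on the processing. In introns of Psmb2, AK054377 went from -3.24 ± 0.72 to -6.35 ± 0.56 and AK047420 from 0.08 ± 0.22 to -2.05 ± 0.10, and Psmb2 was lower in adult testis too. The transcript uc007lom, which overlaps Psme3 on its own strand, went from -6.93 ± 0.37 to -3.73 ± 0.34 while Psme3 fell. The intergenic lncRNAs uc008nen near Psmf1, uc009nic near Psmd7 and AK015152 near Psmd9 were each higher in adult testis, with adult means of 0.24 ± 0.02, -1.80 ± 0.08 and -3.35 ± 0.52.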

How the data were processed

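Whole-testis RNA from 3 neonatal and 3 adult replicates was hybridised to one-colour arrays, 1 array per replicate. The scanner files deposited by the authors (Agilent Feature Extraction 10.5.1.1) hold spot intensity after background subtraction and spatial detrending, the median intensity of spot and background, and other values deposited by the authors, namely the scanner's 0 or 1 flags. The authors also deposited log2 values, and on every array 100.0% of the 26771 equalled, within 0.001, log2 intensity, floored at 5, less a number particular to the array, although the methods name quantile normalization. They were used as an alternative only.

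Probes were named through RefSeq accessions in a gene table of assembly GRCm38.p6, which gave a symbol to 21905 of 22464 mRNA probes (97.5%). Members are the mRNA probes whose symbol is that of an alpha, beta, 19S ATPase, 19S non-ATPase, activator or inhibitor gene of the Psm series. The members and the gene lists were chosen with earlier results of these data known.

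Intensities were scaled to the 75th percentile of each array, floored at a common value (-7.22 on the log2 scale) and taken to log2. Control spots and outlier-marked spots were dropped, and 0 spots were saturated. All lncRNA and mRNA probes that any array measured well above background, with at least 2 complete pairs, were fitted and Benjamini-Hochberg adjusted together in limma 3.58.1 under R 4.3.3. Replicate number was a block, as the methods name a paired test. Tables were made with pandas 2.3.3 and numpy 2.4.6 in Python 3.11.15, and the fit was tested on simulated data. limma's prior degrees of freedom were 2.07, and 2.22 with the marked spots kept. A call is an adjusted p of at most 0.05. Counts of at least 5-fold add the study's fold cut to that call. The study itself set that cut beside a paired t-test p of at most 0.05, with no adjustment named. For a probe with no reading well above background at one age, the fold is a bound. It sets the mean of the brighter age against the mean, over the dimmer age's arrays, of the higher of the lowest signal among probes well above background and the probe's own signal.

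Correlations of arrays across probes ranged from 0.975 to 0.994 for the same age and from 0.659 to 0.682 for different ages. Deviations from the mean of each age correlated at 0.401, 0.339 and 0.681 for replicates 1 to 3, so the numbers were taken as pairs. Replicates 1 and 2 of both ages shared slide 1 and replicate 3 of both ages slide 2. On slide 1, arrays with different numbers correlated at 0.432 and 0.374, so the block mostly follows the slide. The lowest signal of a spot well above background lay between 6.09 and 24.0, and the number of arrays limits the precision.

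Named genes were every member, with values on each array for the testis, immune, catalytic and activator subunits, Psmb11, Psmf1, Psma3 and Psma7, and for the 3 other members with the largest rise and the 3 with the largest fall measured on all 6 arrays. Of the lists of related genes, the 3 largest called changes in each direction were named. Some genes of these lists are counted but their values are not reported here. Alternatives changed the floor, scaling, background correction, filter, flags, block, variance prior, test and replicates. A paired t-test, the kind the methods name, was one of them, on the same spots as the fit it was set beside. Normexp correction started from the median spot and background intensity, with an offset of 50, and was followed by quantile normalization, so it changed the input, correction and scaling together. Fits without a single array also dropped the block.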

Additional observations from a re-analysis of the deposited data

How the results depend on the processing

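With outlier-marked spots kept, 7 members were higher and 29 lower in adult testis (9 of them at least 5-fold), the constitutive median was -0.64 and the immune median -2.55, and 39 related probes were lower. More probes were tested there (43 members rather than 25), and some probes tested both ways gained or lost a call, so the number tested is not the whole cause. With the constitutive shift, 10 members were higher (2 at least 5-fold) and 4 lower (0 at least 5-fold), the medians were 0.47 (a change of sign) and -0.75, 16 related probes were higher, and Psmb5 changed by 0.56. This shift moves every value by construction, and its counts rest on a reference of 5 probes whose error all probes share. With the log2 values the authors deposited, where 39 members were tested, 30 members and 30 related probes were lower (8 members at least 5-fold), with medians of -0.90 and -2.63. With normexp, 0 members were at least 5-fold higher, 23 related probes were lower, the medians were -0.91 and -1.22, Psma3 changed by -0.47, and the differences from the constitutive subunits were 0.75 for Psmb8 and 0.11 for Psmb9. With quantile normalization, 0 members were at least 5-fold higher, the constitutive median was -1.16 and Psma3 changed by -0.55. With the shift to the median, 2 members were higher and the constitutive median was -0.69. Without the filter on dim probes, 6 members and 9 related probes were lower, and the calls of Psma7, Psmb6 and Psmb8 were lost. The share of all mRNA probes called lower also went from 45.8% to 29.8% there. With a trend in the prior variance, 7 members were higher, against 30.8% of mRNA probes. A paired t-test, the kind the methods name, was run with marked spots left out. It called 4 members higher and 6 lower at its unadjusted threshold, against 24.2% and 33.8% of mRNA probes. After Benjamini-Hochberg it called 2 higher and 3 lower (1 at least 5-fold), against 17.6% and 21.9%, with 3 related probes higher and 8 lower. At the unadjusted threshold the calls of Psma7, Psmb6 and Psmb8 were among those lost, though their changes stayed the same. Each of these had only 2 unmarked pairs, so the losses do not describe the study's own test. For deposited values, normexp, quantile normalization, filter, trend and t-test, the cause was not tested.

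In place of the pairing, no replicate block gave 3 members higher and 12 lower, against 26.7% and 42% of mRNA probes. With marked spots kept it gave 5 and 24, against 25.5% and 43.3%. The difference of Psmb9 from the 5 constitutive probes stayed at -1.44, and its test is not used.

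Further alternatives with marked spots kept were chosen after seeing the data. There normexp gave 0 members at least 5-fold higher and 5 at least 5-fold lower and a constitutive median of -1.14. Quantile normalization gave 0 at least 5-fold higher and medians of -1.23 (constitutive) and -2.85 (immune). The shift to the median gave -0.90 and -2.81, and the constitutive shift gave 19 members lower, 2 at least 5-fold higher and 1 at least 5-fold lower, with medians of -0.20 and -2.12. Of all mRNA probes, 40.6% were lower under that constitutive shift.

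With 1 pair left out, or 1 array left out and the replicate block dropped with it, the members higher numbered 0 to 4 and lower 2 to 13, at least 5-fold higher 0 to 1 and at least 5-fold lower 0 to 3. Of all mRNA probes, 21.9% to 28.5% were higher and 31.2% to 43% lower in these fits. The constitutive median was -0.62 to -0.41 and the immune median -2.39 to -1.45. Related probes higher numbered 0 to 7 and lower 3 to 14. The low ends come from leaving out replicate 1 (0 members higher, 4 lower) or replicate 2 (0 higher, 2 lower), where 8 members could still be tested. With marked spots kept the constitutive median was -0.71 to -0.61, and leaving out a replicate gave 5 members higher and 22 to 25 lower. Of all mRNA probes, 26.2% to 27.7% were higher and 43.8% to 44.7% lower there. Psme4 changed by 2.64 to 2.76 where it could be tested.

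Psme4 kept its direction and its call under all alternatives in which it could be tested, with values of 2.08 to 3.60. With marked spots left out and replicate 1 or replicate 2 dropped, it had fewer than 2 complete pairs and was not tested. Changes of single members were followed under alternatives for the immune, catalytic and activator subunits, Psmf1, Psma3, Psma7 and the members with the largest changes. The remaining members, such as Psmc4 and Psmd8, were not followed singly. For those followed other than Psme4, 390 of the values kept direction and call, 51 lost the call and 7 gained one. Another 3 changed sign, those of Psma3 and Psmb5 above. Signals near background limit dim probes such as Psmd9 and Psma1. With 3 arrays an age, and outlier marks on most bright spots of slide 2, many members rest on 2 pairs.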
